A study of Canis lupus familiaris with 34 samples.

Results

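The adipocyte genes described here are ADIPOQ, LEP, PLIN1, PLIN4, CIDEC, CIDEA, FABP4, LPL, DGAT2 and PPARG, measured by RNA-seq in mitral valves of 34 Cavalier King Charles Spaniels (CKCS). The 10 members were chosen by symbol from 23768 counted features, and the canine RefSeq feature was used where both a RefSeq and an aligned human XenoRefSeq feature were listed. All 10 passed the filter of a sum of at least 100 counts, as did 19568 features in all. The dogs were privately owned animals of one breed, about 10 years old, whose valves were excised after elective euthanasia. The group termed 10y-noCHF held 19 dogs (10 females, 9 males) without congestive heart failure (CHF). Staged by the ACVIM scale, only 1 of them was free of structural heart disease. The others had myxomatous mitral valve disease (MMVD) before failure. The group termed 10y-MMVD-CHF held 15 dogs (6 females, 9 males) with CHF caused by MMVD, whose diagnosis included a response to diuretic treatment. The stage of each single dog is not paired with its library here, so 10y-noCHF was treated as 1 group although it mixes stages. Each library came from a different dog, and the error below is the spread between dogs.

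White adipocytes store triglyceride in a single large lipid droplet. They take up fatty acids that lipoprotein lipase releases at the capillary wall, re-esterify them, coat the droplet with perilipin and CIDE proteins, and secrete the hormones adiponectin and leptin, a programme driven by the nuclear receptor PPARγ. In the heart, fat cells lie under the epicardium and along the atrioventricular groove near the hinge of the mitral leaflets, and fat cells have also been described within valve leaflets. Several of the genes are not exclusive to adipocytes. LPL, the lipase that hydrolyses circulating triglyceride, and PLIN4 are also made in striated muscle, FABP4 is also known from capillary endothelium and macrophages, and PPARG is present in many cell types.

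The features of ADIPOQ, LEP and PPARG were of canine RefSeq and cover exons, and the other 7 were XenoRefSeq features that cover whole gene spans, introns included. On the canFam4 assembly, ADIPOQ was counted at chr34:19582217-19584037 on the plus strand over 737 exon bases. LEP was counted at chr14:7975125-7979538 and PPARG at chr20:6208180-6281750, both on the minus strand. PLIN1 was counted at chr3:53147420-53159214, PLIN4 at chr20:55591388-55602975, CIDEC at chr20:8458260-8471675, CIDEA at chr7:77774404-77791792, LPL at chr25:37256149-37280848 and DGAT2 at chr21:22949725-22981470. The FABP4 feature joined a span at chr29:29223946-29228282 with shorter alignments on chromosomes X and 27, which the count does not separate. Strand was not used, so reads of ADIPOQ cannot be told from those of ADIPOQ-AS1 on the same bases, and CIDEC overlaps the feature CIDECP1.

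Transcripts of 8 of the 10 genes were counted in every valve, and those of ADIPOQ and CIDEC in all but 1 valve each. The total count per dog was 46185256 to 82361245, with a median of 59645613 in 10y-noCHF and 62167469 in 10y-MMVD-CHF dogs. A list of 10 markers of valve interstitial cells, the fibroblast-like cells of the leaflet, summed to 13339 to 36352 CPM (TMM-scaled counts relative to the size of the library) in every dog, and no list of cell type markers had a gene called between the CHF groups. A list of 17 cardiomyocyte markers summed to 57.0 to 56657 CPM. A pair of libraries stood apart in a sum of markers. CAV1047, a 10y-MMVD-CHF female, had the highest cardiomyocyte sum. CAV614, a 10y-MMVD-CHF male, had the highest sum of red blood cell markers at 4269 CPM. HBA1 and HBA2 in that list had the same total count (261415) and length (2441 bases), so the sum appears to hold the same reads more than once. Results that rest on either dog are given with and without it.

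ADIPOQ, which encodes adiponectin, a hormone secreted by adipocytes, ranged from 0 to 1426 counts. In 10y-noCHF dogs its level was 0 CPM at the lowest, 3.11 CPM at the median and 20.1 CPM at the highest. In 10y-MMVD-CHF dogs it was 0.0298, 0.921 and 15.8 CPM. The groups overlapped over nearly the whole range, and in 12 of 15 10y-MMVD-CHF dogs ADIPOQ was under the 10y-noCHF median. The highest values, 20.1, 18.8, 17.6 and 16.5 CPM, came from CAV1732, CAV1731, CAV1790 and CAV748, all 10y-noCHF females, followed by CAV1047 at 15.8 CPM. The single dog with no ADIPOQ count was CAV749, a 10y-noCHF male, whose depth allows a level of up to 0.0387 CPM of this exon feature. The longer XenoRefSeq feature of ADIPOQ, which shares its reads with ADIPOQ-AS1, had 28 counts in that dog. On the log2 scale the values ran from -4.96 to 4.33. The widest gap, 16.9% of the range, lay between CAV614 (-4.01) and CAV579 (-2.45), and it set CAV749 and CAV614 below the other dogs. Whether the dogs form separate sets with and without ADIPOQ was not tested.

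LEP, which encodes the hormone leptin, was low throughout and followed ADIPOQ only in part. It had 0.0405 CPM at the lowest, 0.691 CPM at the median and 2.56 CPM at the highest in 10y-noCHF dogs, and 0.0636, 0.503 and 1.37 CPM in 10y-MMVD-CHF dogs. The highest dog, CAV1790, was also among those highest in ADIPOQ, but the next, CAV614, had only 2 ADIPOQ counts against 92 LEP counts. The dog with least LEP, CAV1041, had 2 counts.

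The droplet coat genes were uneven in the same dogs as ADIPOQ. PLIN1, which encodes perilipin 1, the adipocyte droplet coat protein that gates lipolysis, had 0.522, 5.29 and 36.01 CPM (lowest, median, highest) in 10y-noCHF dogs and 0.286, 1.33 and 28.2 CPM in 10y-MMVD-CHF dogs. By sex, the PLIN1 median was 6.20 CPM in 10y-noCHF females, 5.29 CPM in 10y-noCHF males, 1.05 CPM in 10y-MMVD-CHF females and 1.61 CPM in 10y-MMVD-CHF males. From the lowest dog to the highest, PLIN1 differed 126-fold (18 to 2559 counts). All 4 dogs highest in ADIPOQ were also the 4 highest in PLIN1.

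PLIN4, another perilipin of adipocytes and striated muscle, had 0.748, 5.68 and 29.3 CPM in 10y-noCHF dogs and 1.41, 3.51 and 33.7 CPM in 10y-MMVD-CHF dogs. Here CAV1047 was the highest dog of all, ahead of CAV1731. CIDEC, which promotes fusion of lipid droplets, had 0, 1.62 and 7.87 CPM in 10y-noCHF dogs and 0.0303, 0.395 and 5.15 CPM in 10y-MMVD-CHF dogs. Its count of 0, in the 10y-noCHF male CAV488, allows a level of up to 0.0523 CPM. CIDEA, a CIDE protein known from brown fat that is also present in white fat, had 0.151, 1.35 and 6.23 CPM in 10y-noCHF dogs and 0.109, 0.404 and 5.05 CPM in 10y-MMVD-CHF dogs. For both CIDE genes 13 of 15 10y-MMVD-CHF dogs were below the 10y-noCHF median, and the other 2 were above it.

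The genes of fatty acid handling were split. FABP4, the adipocyte fatty acid carrier, behaved like the droplet genes, with 0.278, 13.9 and 82.3 CPM in 10y-noCHF dogs and 0.566, 3.50 and 58.1 CPM in 10y-MMVD-CHF dogs. LPL had 5.73, 25.2 and 137.8 CPM in 10y-noCHF dogs and 3.37, 33.4 and 324 CPM in 10y-MMVD-CHF dogs, and was the only member with a higher median in the dogs with CHF. Its highest value was from CAV1047 and its lowest from CAV614. DGAT2, which catalyses the last step of triglyceride synthesis, had 0.870, 2.95 and 15.2 CPM in 10y-noCHF dogs and 0.668, 2.55 and 9.89 CPM in 10y-MMVD-CHF dogs. PPARG was the most even member, with 0.679, 2.79 and 7.91 CPM in 10y-noCHF dogs and 1.15, 2.13 and 5.33 CPM in 10y-MMVD-CHF dogs.

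**Figure D1:**
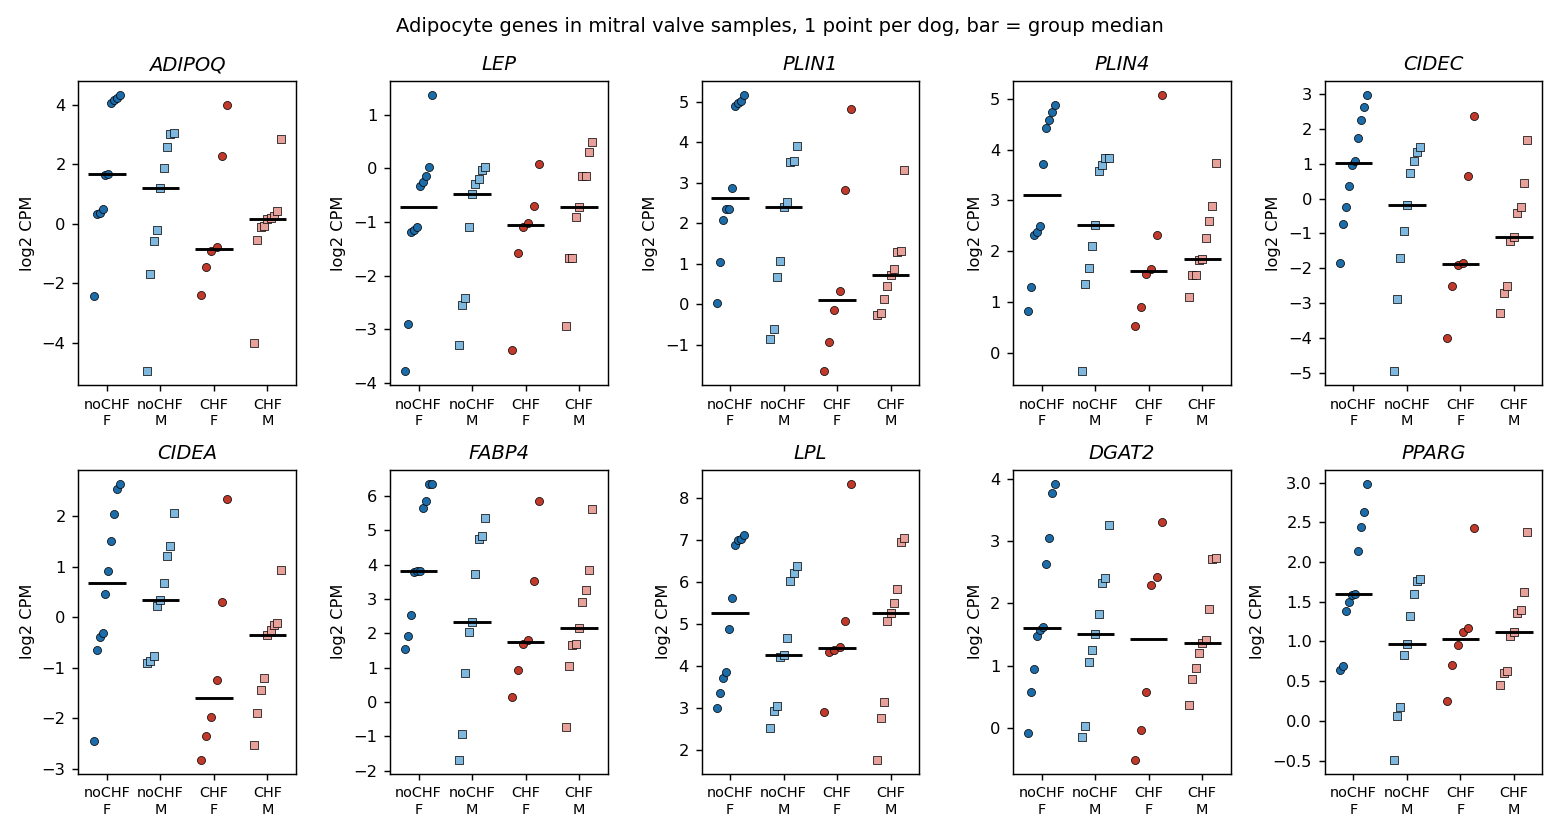
Level of each adipocyte gene (log2 CPM, vertical axis) in mitral valves by CHF status and sex, with 1 point per dog and a bar at the median of 10 10y-noCHF females, 9 10y-noCHF males, 6 10y-MMVD-CHF females and 9 10y-MMVD-CHF males. The groups overlap in all 10 genes, and for ADIPOQ and PLIN1 the 4 highest points are 10y-noCHF females.

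A few dogs carried the high values across the members. CAV1731 and CAV1732 were among the 4 highest dogs for 9 of the 10 genes, CAV1047 for 8, CAV1790 for 5 and CAV748 for 4. CAV1732 was the single highest dog for 5 genes. At the other end, CAV1939 was among the 4 lowest dogs for 6 genes and CAV749 for 5, both of them 10y-noCHF males.

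Levels can be compared between genes only per length, and only the 3 exon features have comparable lengths. Per kilobase of exon, ADIPOQ had a median level of 1.68 CPM over the 34 dogs (range 0 to 27.2), PPARG 1.29 CPM (0.373 to 4.35) and LEP 0.185 CPM (0.0138 to 0.875). ADIPOQ and PPARG did not differ beyond their spread, and the LEP median was below the lowest PPARG value. The spread between dogs, as the SD of log2 CPM with group and sex means removed, was 2.28 for ADIPOQ, 2.10 for FABP4, 1.92 for CIDEC and 1.79 for PLIN1. The SD was 1.69 for LPL, 1.41 for CIDEA, 1.35 for PLIN4, 1.27 for LEP, 1.19 for DGAT2 and 0.77 for PPARG. Against the 200 features nearest in mean level, the SD was above that of 91% to 99% for 8 members, of 79.5% for LEP and of 73% for PPARG.

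The comparison of the study asks which genes differ in the valve between dogs with and without CHF. No member passed the FDR threshold of 0.1 in edgeR's quasi-likelihood fit, against 23 of 19568 features, or 0.118%. DESeq2 and limma called no member either. At an unadjusted p below 0.05 there were 2 members, PLIN1 and CIDEA, against 6.31% of all features. In 10y-MMVD-CHF against 10y-noCHF dogs the log2 fold change was -1.28 ± 0.58 (SE) for PLIN1 (p = 0.0356, edgeR FDR 0.764). For CIDEA it was -1.13 ± 0.48 (p = 0.0252, edgeR FDR 0.729).

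The estimates of the other 8 members had an unadjusted p above 0.05. In log2 fold change they were -1.12 ± 0.68 for ADIPOQ, -0.88 ± 0.62 for CIDEC, -0.78 ± 0.66 for FABP4 and -0.67 ± 0.44 for PLIN4. They were -0.33 ± 0.40 for DGAT2, -0.18 ± 0.27 for PPARG, -0.13 ± 0.43 for LEP and 0.37 ± 0.54 for LPL. The edgeR FDR of these 8 members lay between 0.848 and 0.985. With the longer XenoRefSeq feature (41655 counts against 9113, reads shared with ADIPOQ-AS1), ADIPOQ was at -1.36 ± 0.68 (p = 0.0526, edgeR FDR 0.787). Of the 10 members 9 had an estimate below 0, with a median log2 fold change of -0.72, against 47.4% of all features and a median of 0.01 over them. The members rise and fall together across the same dogs (described below), so these signs are not independent of each other. Markers of some other cell types also leaned one way. Estimates were below 0 for 7 of 7 mesothelial, 0 of 6 red blood cell (HBA1 and HBA2 taken as separate markers), 1 of 10 macrophage and 2 of 17 cardiomyocyte markers. The remaining lists were more mixed, with 4 of 10 endothelial, 3 of 8 smooth muscle and pericyte and 6 of 10 valve interstitial markers below 0. None of these markers was called, and their part in the estimates of the members was not tested except for the cardiomyocyte covariate below. In whole tissue, fewer adipocytes and less RNA per adipocyte cannot be told apart.

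The number of members with an unadjusted p below 0.05 turned on single dogs, and the size of the estimates moved. With each dog left out, all members but LPL and LEP kept the sign of their CHF estimate. Without CAV1047, which was high in most members and highest in cardiomyocyte markers, 5 members had an unadjusted p below 0.05 (ADIPOQ, PLIN1, PLIN4, CIDEC and CIDEA), and the LPL log2 fold change went from 0.37 to -0.29. Of all features, 1416 of 19545 had an unadjusted p below 0.05 in that fit. The estimates without CAV1047 were -1.71 for ADIPOQ, -1.93 for PLIN1, -1.24 for PLIN4, -1.40 for CIDEC, -1.73 for CIDEA, -1.32 for FABP4 and -0.53 for DGAT2. Without CAV373, the 10y-MMVD-CHF male with most ADIPOQ, there were also 5 members, against 1286 of 19535 features. Without CAV444, a 10y-noCHF male, there were 0, against 1040 of 19531 features. Leaving out CAV1097, CAV1196, CAV1259, CAV1731, CAV1732, CAV1872, CAV1876, CAV285 or CAV743 left 1 member. Without CAV614 and CAV1047 together there were 4, against 1570 of 19513 features. No member reached the FDR threshold in any of these fits, and the lowest FDR with a dog left out was 0.263, for CIDEA without CAV1047. With the mean of the cardiomyocyte markers as a covariate, ADIPOQ, PLIN1, PLIN4, CIDEC, CIDEA and FABP4 had an unadjusted p below 0.05. So did 1486 of 19568 features. In that fit the CHF estimate of PLIN1 was -1.71 on the log2 scale (edgeR FDR 0.280) and that of LPL was -0.21 (edgeR FDR 0.869).

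All 10 members had a lower estimate in males than in females, and none passed the FDR threshold, against 28 of 19568 features called, or 0.143%. A share of 51% of all features had an estimate below 0. PLIN1 alone had an unadjusted p below 0.05, as did 2.98% of all features, with males against females at -1.37 ± 0.57 on the log2 scale (p = 0.0218, edgeR FDR 0.9997). The median level of PLIN1 was 5.10 CPM in the 16 females and 1.93 CPM in the 18 males, with 12 of 18 males below the female median. ADIPOQ had a log2 fold change of -1.28 ± 0.66, with medians of 2.24 CPM in females and 1.09 CPM in males. The other estimates ran from -0.999 for CIDEC to -0.02 for LEP.

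The sex estimates also rested on few dogs. Without CAV1047, a female, the count of members with an unadjusted p below 0.05 was 0, with log2 fold changes of -0.75 for PLIN1, -0.72 for ADIPOQ and -0.098 for CIDEA. With the cardiomyocyte covariate it was also 0, with -0.79 for PLIN1, -0.73 for ADIPOQ and -0.25 for PLIN4. Without CAV373 it was 4 (704 of 19535 features), and without CAV1259 it was 3 (616 of 19551 features). Leaving out CAV1196, CAV1519, CAV1872, CAV1876, CAV444, CAV579, CAV614 or CAV743 gave 2. DESeq2 gave 3 such members (ADIPOQ, PLIN1 and PPARG), against 670 of 19568 features. With limma there were 0, and the signs of LEP and CIDEA turned. None of these fits called a member.

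Whether the CHF difference itself differed between the sexes was tested as an interaction. EdgeR's quasi-likelihood test called no feature at the FDR threshold (0%), while 1178 had an unadjusted p below 0.05 and DESeq2 called 3. No member had an unadjusted p below 0.05. PPARG came closest, with an interaction of 0.91 ± 0.51 on the log2 scale, p = 0.0850 and an edgeR FDR of 0.833. Its CHF log2 fold change was -0.69 in females alone and 0.22 in males alone. For PLIN1 the interaction was 0.01 ± 1.19, with -1.28 in females alone and -1.27 in males alone.

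**Figure D2:**
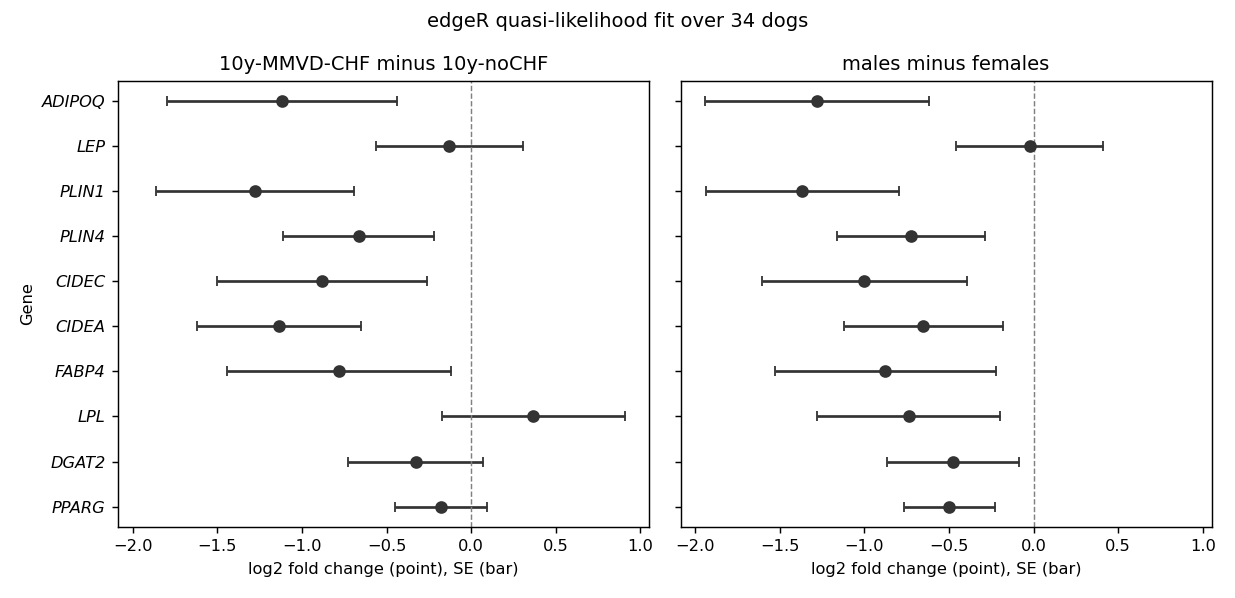
Log2 fold change (horizontal axis) of each adipocyte gene from edgeR over 34 dogs, for 10y-MMVD-CHF minus 10y-noCHF (left) and males minus females (right), with bars for 1 SE. For CHF status 9 of 10 points lie below 0 and LPL lies at 0.37, and for sex all 10 lie below 0.

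The members were next compared with ADIPOQ across dogs, in log2 CPM, since adiponectin is made by adipocytes. All 9 relations had a permutation p adjusted over the 9 below 0.05, for Pearson's r and for Spearman's rho. PLIN1 was closest (r = 0.926, rho = 0.952), followed by FABP4 (r = 0.913, rho = 0.924), CIDEC (r = 0.798, rho = 0.909), CIDEA (r = 0.840, rho = 0.892) and PLIN4 (r = 0.894, rho = 0.862). For these 5 genes the permutation p of both measures was 1e-05, the smallest that 100000 permutations can give, and 1.5e-05 after adjustment. The dogs lowest in ADIPOQ, CAV749 and CAV614, had more PLIN1 than the dog CAV1876, whose ADIPOQ was higher.

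The other members followed ADIPOQ less closely. DGAT2 had r = 0.663 and rho = 0.694, LPL had r = 0.713 and rho = 0.654, and PPARG had r = 0.459 and rho = 0.533, with adjusted permutation p-values of 1.5e-05, 5.14e-05 and 0.00163 for rho. For r these were 2.57e-05, 1.5e-05 and 0.00736. LEP was weakest, with r = 0.409 (adjusted permutation p = 0.0163) and rho = 0.346 (adjusted permutation p = 0.0462). Removing CAV749 and CAV614, the dogs farthest from the ADIPOQ median, gave r = 0.967 for PLIN1, 0.862 for DGAT2, 0.697 for PPARG, 0.643 for LPL and 0.508 for LEP. CAV614 was the visible exception among the dogs. It ranked 33rd of 34 in ADIPOQ but 2nd in LEP, 5th in PPARG and 7th in DGAT2.

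With the means of CHF status and sex removed, rho with ADIPOQ was 0.955 for PLIN1, 0.939 for FABP4 and 0.530 for PPARG. These relations over all dogs thus did not come from differences in those means alone. In 10y-noCHF dogs alone, 8 of the 9 relations had an adjusted permutation p of rho below 0.05, with LEP the exception (rho = 0.421, adjusted permutation p = 0.0737). In 10y-MMVD-CHF dogs alone it was 5 of 9, and rho was 0.864 for PLIN1, 0.829 for CIDEC, 0.782 for FABP4, 0.764 for CIDEA and 0.6 for PLIN4. In these 15 dogs PPARG had rho = 0.1 (adjusted permutation p = 0.726) against rho = 0.802 (adjusted permutation p = 0.000146) in the 19 10y-noCHF dogs. The difference between the groups in these relations was not tested.

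**Figure D3:**
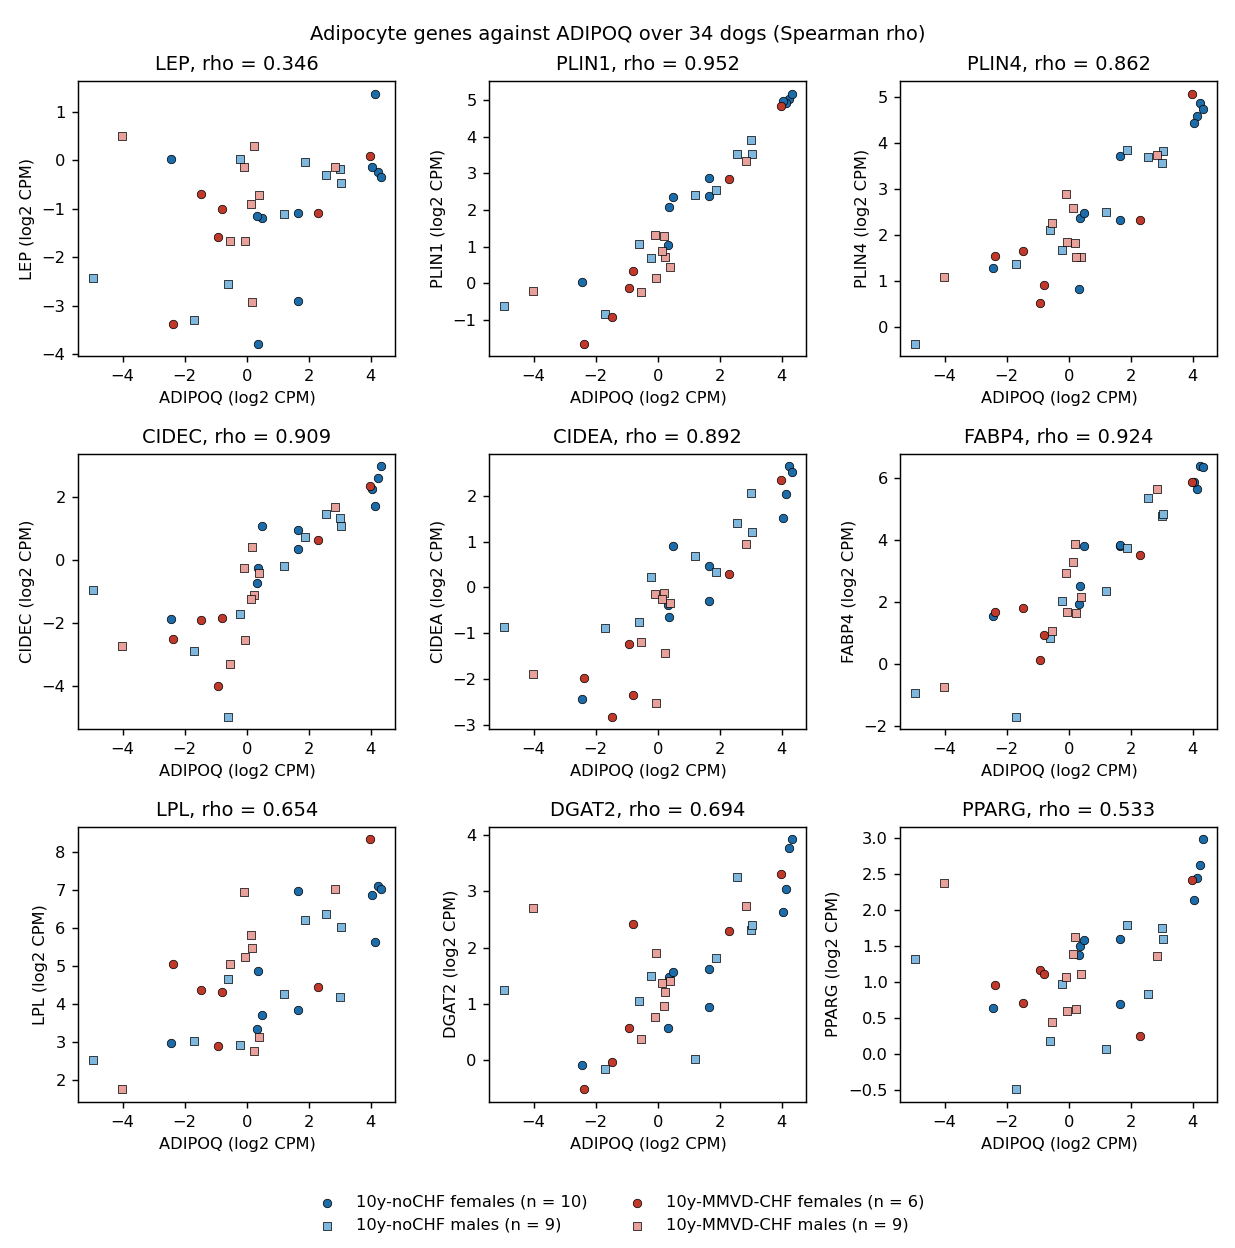
Each of 9 adipocyte genes (log2 CPM, vertical axis) against ADIPOQ (log2 CPM, horizontal axis) with 1 point per dog, colour and shape giving CHF status and sex. Spearman's rho falls from 0.952 for PLIN1 to 0.346 for LEP, and CAV614, at a log2 CPM of -4.01 for ADIPOQ, stands high in the panels of LEP, DGAT2 and PPARG.

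Among the 19568 features, those with the highest rho with ADIPOQ over the 34 dogs were its antisense neighbour ADIPOQ-AS1 (rho = 0.984) and the XenoRefSeq feature of ADIPOQ (rho = 0.981), which share its reads. After them came PLIN1, FABP4, TRARG1 (rho = 0.913), CIDEC, PFKFB1 (rho = 0.907), HCAR1 (rho = 0.905) and HPR (rho = 0.895). TRARG1 encodes a regulator of glucose transporter trafficking, PFKFB1 an enzyme that sets the level of a glycolytic regulator, and HCAR1 the lactate receptor of fat cells. HPR, a haptoglobin-related gene, lies on nearly the same bases as the feature HP and shares its reads. TRARG1 ran from 0.0954 to 16.3 CPM and HPR from 0.0318 to 25.4 CPM. In this order CIDEA ranked 12, PLIN4 13, DGAT2 43, LPL 82, PPARG 719 and LEP 3036. These ranks are a description, with no test.

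Some related genes shared this pattern. Of 61 related genes tested, 7 (11.5%) were among the 100 features most like ADIPOQ, as were 7 of the 9 other adipocyte genes, where the 100 are 0.511% of all features. The 7 related genes, named after their values were seen, were PCK1 and GPD1, which supply the glycerol backbone of triglyceride, AQP7, the glycerol channel, the lipase gene LIPE, its fellow lipolysis gene G0S2, an inhibitor of triglyceride lipase, and the lipid synthesis genes THRSP and SCD. PCK1 ranked 14 with rho = 0.843, GPD1 17 with rho = 0.820, AQP7 19 with rho = 0.779 and LIPE 26 with rho = 0.728. None of the 8 adipogenic transcription factors, the 8 thermogenic genes or the 7 other adipocyte hormones and receptors was among the 100.

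None of the 61 related genes passed the FDR threshold for CHF status, and 33 had an estimate below 0 (median log2 fold change -0.01). At an unadjusted p below 0.05 there were 3 of 61 (4.92%), a share below the 6.31% of all features. Those with an estimate below 0 were CDH13, the cadherin that binds adiponectin (log2 fold change -0.39 ± 0.11, p = 0.00141, edgeR FDR 0.369), and MGLL, the monoglyceride lipase (-0.30 ± 0.12, p = 0.0146, edgeR FDR 0.630). CDH13 had a median of 363 CPM in 10y-noCHF and 282 CPM in 10y-MMVD-CHF dogs. Its feature spans 1006825 bases with introns, and its median over all dogs was 0.286 CPM per kilobase of that span. The one with an estimate above 0 was GPAM, the mitochondrial enzyme of the first step of glycerolipid synthesis (0.20 ± 0.09, p = 0.0288, edgeR FDR 0.739). Neither CDH13 (rho = -0.152) nor GPAM (rho = -0.203) was among the genes that followed ADIPOQ, while MGLL had rho = 0.517 with it, at rank 873.

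The other named genes of the lists had an unadjusted p above 0.05 for CHF status. The genes with the smallest p in their lists were EBF2, a transcription factor of fat cell precursors (log2 fold change -0.25 ± 0.15), ACACA, the first enzyme of fatty acid synthesis (0.10 ± 0.06), VLDLR, a lipoprotein receptor (-0.17 ± 0.13), PRDM16, a regulator of brown fat (-0.19 ± 0.12), and BSCL2, the droplet assembly protein seipin (-0.12 ± 0.07). BSCL2 was also the gene of its list with the highest level per length. In the other lists, the genes with the highest CPM per length of their feature included CEBPD (0.27 ± 0.22) and SREBF1 (-0.01 ± 0.10), both transcription factors. Others were PNPLA2, the adipose triglyceride lipase (0.05 ± 0.19), RBP4, the retinol carrier (-0.16 ± 0.15), and CD36, a fatty acid transporter (0.11 ± 0.43). The last were AGPAT2 of phosphatidic acid synthesis (-0.14 ± 0.08) and COX7A1 of the respiratory chain (0.14 ± 0.36). Of these, the features of SREBF1 and CD36 cover exons and the others whole spans. The lists mix both kinds of length, so this choice does not rank the genes by transcript level. For sex, 42 of the 61 (68.9%) had an estimate below 0 in males, against 51% of all features, and none passed the FDR threshold. At an unadjusted p below 0.05 there were 4 (6.56%, against 2.98% of all features), named after their values were seen. PCK1 had a log2 fold change of -2.39 ± 0.74 in males against females (p = 0.00263, edgeR FDR 0.887). The others were SCD at -0.41, LPIN1, a phosphatidic acid phosphatase of triglyceride synthesis, at -0.37, and RETN, which encodes the hormone resistin, at 0.53.

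Several members are also known from other cells of the heart, so they were compared with the mean log2 CPM of markers for cardiomyocytes, endothelium and macrophages, with p-values adjusted over these 30 relations. The share of all tested features that followed each marker mean is not given here. Counts of members past the threshold therefore do not show whether members followed these markers more often than other genes. LPL had the closest relation with the cardiomyocyte markers, at rho = 0.941 against 0.654 with ADIPOQ, a difference that was not tested (r = 0.889, adjusted permutation p of both at most 0.0003, where the unadjusted p is the smallest that the permutations can give). PLIN4 came next (r = 0.705, rho = 0.769), then FABP4 (r = 0.642, rho = 0.644), PLIN1 (r = 0.499, rho = 0.570) and ADIPOQ (r = 0.557, rho = 0.557). For rho, 8 of 10 members had an adjusted permutation p below 0.05, and DGAT2 (rho = 0.333, adjusted permutation p = 0.103) and LEP (rho = 0.158, adjusted permutation p = 0.382) did not. For r it was 6 of 10, and after removing CAV749 and CAV1196, the dogs farthest from the marker median, it was 3 of 10 by r (LPL, PLIN4 and FABP4) and still 8 of 10 by rho. The r of ADIPOQ then was 0.460 (adjusted permutation p = 0.0628). Without CAV614 and CAV1047 it was 5 by rho and by r, and in 10y-MMVD-CHF dogs alone it was 3 by both.

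The cardiomyocyte sum ranged from 57.0 to 27090 CPM (median 3661) in 10y-noCHF and from 79.9 to 56657 CPM (median 5045) in 10y-MMVD-CHF dogs, and its part in the levels of the members was not tested beyond the fit with it as a covariate. In some dogs adipocyte and cardiomyocyte genes were apart. CAV444 had a cardiomyocyte sum of 192.9 CPM, 28th of 34, with 8.07 CPM of ADIPOQ (7th) and 4.13 CPM of CIDEA (4th), but 18.4 CPM of LPL (23rd). CAV1790 was 17th in cardiomyocyte markers, 3rd in ADIPOQ and 12th in LPL.

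**Figure D4:**
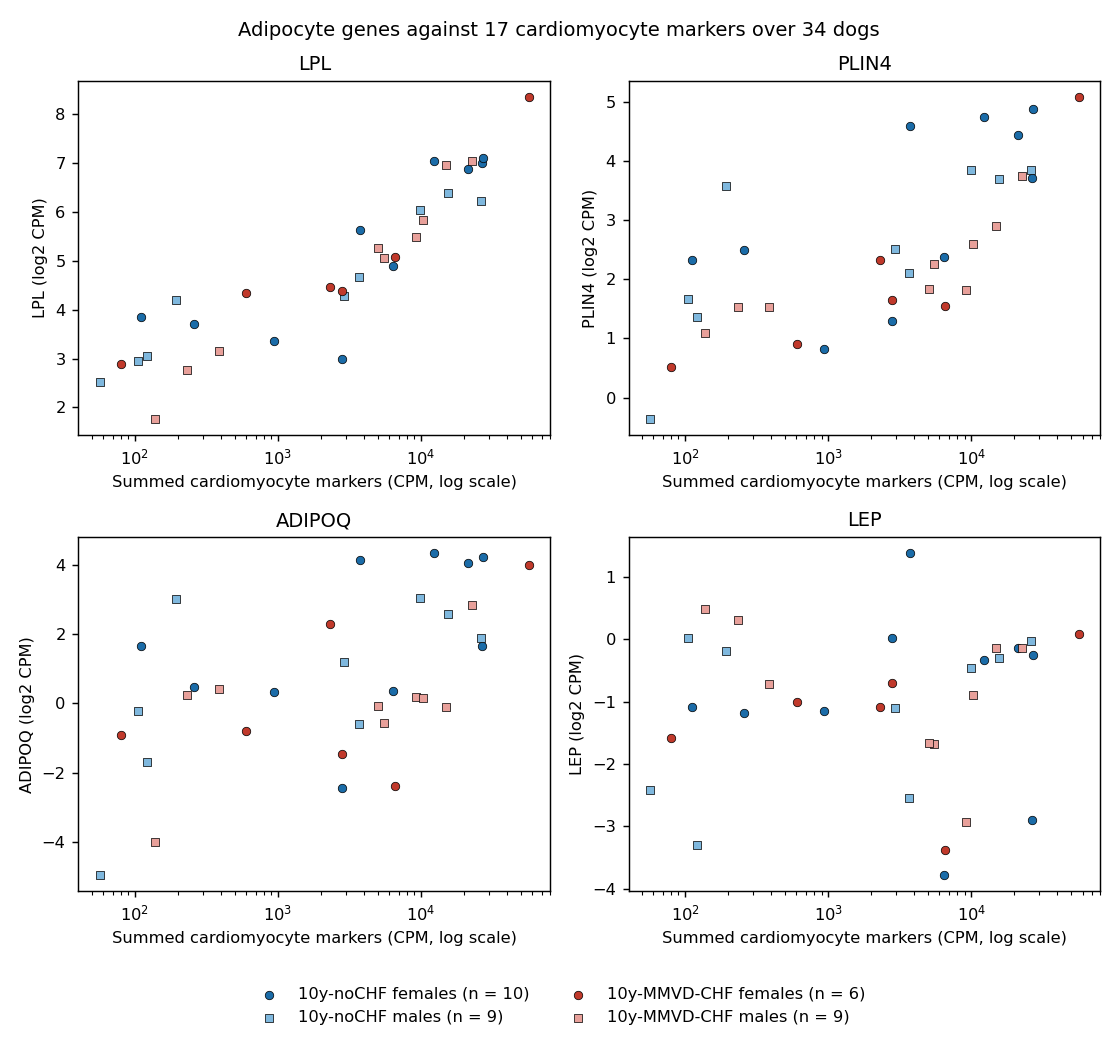
LPL, PLIN4, ADIPOQ and LEP (log2 CPM, vertical axis) against the summed level of 17 cardiomyocyte markers (CPM, log scale, horizontal axis), 1 point per dog. LPL rises along the whole axis (rho = 0.941 with the marker mean), ADIPOQ follows the markers less closely (rho = 0.557), and LEP shows the weakest relation (rho = 0.158).

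With the mean of the endothelial markers no member had a relation past the threshold, and the smallest unadjusted permutation p of rho was 0.0765, for DGAT2. FABP4 had r = -0.211 and rho = -0.278 with them (adjusted permutation p of 0.335 and 0.168). The sum of these 10 markers had rho = -0.424 with ADIPOQ against -0.279 for the mean, given as a description, and was 537 to 1148 CPM in 10y-noCHF and 594 to 1385 CPM in 10y-MMVD-CHF dogs. With the macrophage markers 4 members had negative relations past the threshold by rho, namely PLIN1 (r = -0.535, rho = -0.481), PLIN4 (r = -0.563, rho = -0.477), CIDEA (r = -0.520, rho = -0.472) and ADIPOQ (r = -0.488, rho = -0.465), with adjusted permutation p-values of rho of 0.0172 to 0.0175. By r there were 5, with LPL (r = -0.430, adjusted permutation p = 0.0338) the fifth. Removing CAV1731 and CAV1047, the dogs farthest from the macrophage median, left none past the threshold by either measure (adjusted permutation p of rho = 0.1 for these 4). The calls rested on those dogs, while rho itself was then -0.386 for PLIN1, -0.373 for PLIN4, -0.369 for CIDEA and -0.367 for ADIPOQ, with unadjusted permutation p-values of 0.03 to 0.0402. Without CAV614 and CAV1047 none passed by rho and these 4 passed by r. The macrophage sum was 545 to 2003 CPM in 10y-noCHF and 671 to 1860 CPM in 10y-MMVD-CHF dogs, and CAV1731 and CAV1047 ranked 34th and 32nd in it. CPM are shares of a total, so a tissue component that takes more of a library lowers the share of the others.

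Mesothelial markers, which would mark the epicardial surface, were low, at 5.85 to 75.6 CPM for 7 tested markers, while MSLN and KRT19 did not reach the sum of 100 counts. Their sum did not follow ADIPOQ (rho = -0.037, given as a description). KRT18 held the most counts of the 7 (28643, with UPK3B next at 7625), so the sum leans on KRT18. The sum of 8 smooth muscle and pericyte markers was 2114 to 6224 CPM (rho = 0.200 with ADIPOQ), that of red blood cell markers 4.32 to 4269 CPM (rho = -0.167) that of valve interstitial markers had rho = -0.314 and that of macrophage markers rho = -0.532.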

How the data were processed

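Mitral valve RNA from 34 dogs was sequenced as paired-end poly(A) libraries. Per the study's methods and the file headers, the authors mapped reads to canFam4 with STAR and counted them with featureCounts 2.0.3. The annotation joined canine RefSeq features with aligned human XenoRefSeq genes. The deposited values are raw counts, with both ends of a pair counted separately, reads given to every feature they overlap, and strand not used. XenoRefSeq features span whole genes with introns. The table also has 1 column that belongs to no sample analysed here, and it was not used.

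Samples were grouped by the labels' CHF status, with sex and dog from the titles. Features below 100 counts in total were dropped, which left 19568 of 23768. Counts were scaled by TMM and tested with the quasi-likelihood F test of edgeR 4.0.16 (R 4.3.3), with CHF status and sex as fixed effects and Benjamini-Hochberg FDR over all features (threshold 0.1). Standard errors were computed from the fold change and the F statistic and are approximate. CPM are TMM-scaled counts relative to library size, and log2 CPM used a prior count of 2. Relations across dogs used Pearson's r and Spearman's rho with two-sided permutation p-values (100000 resamples), adjusted over 9 relations with ADIPOQ and over 30 with marker means. The total per dog was 46185256 to 82361245 counts. Limits given for a count of 0 are 3 counts and cover counting error only. The edgeR step was tested on simulated data.

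Named genes were the 10 members, per related list the gene with the smallest p for CHF status and that with the highest median CPM per kilobase, and the 10 features with the highest rho with ADIPOQ, of which 1 is not reported here. The members and lists were chosen with earlier results of these data known. Alternatives were DESeq2 1.42.0, limma 3.58.1 (voom with sample weights), RLE and upper-quartile scaling, other filters, a robust fit, the XenoRefSeq feature where both exist, no second factor, a cardiomyocyte covariate, an FDR of 0.05, a prior count of 0.5, each sex or CHF group alone, and each dog left out. Leaving out CAV614 and CAV1047 together was chosen after seeing the data. No member sequences were used.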

Additional observations from a re-analysis of the deposited data

Results flagged for a closer look

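In the groups of 6 to 10 dogs formed by CHF status and sex, 2 of 40 tests (10 genes in 4 groups) found a dog far from the others. Chance flags about 1 in 20 such groups, so 2 of 40 is the number that chance gives. ADIPOQ of CAV614 was the lowest of 9 10y-MMVD-CHF males, with 2 counts (0.0298 CPM, log2 CPM -4.01 against -0.55 in the dog above it), and this distance was 0.504 of the group's range. CAV614 also had the highest sum of red blood cell markers, at 4269 CPM, and its part in the ADIPOQ value was not tested. PLIN1 of CAV373 was the highest of the same 9 males, with 9.95 CPM (log2 CPM 3.32 against 1.31 in the dog below it), a distance of 0.562 of the group's range. CAV373 ranked 5th of 34 in cardiomyocyte markers.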

How the results depend on the processing

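No member passed the FDR threshold for CHF status, sex or their interaction under any alternative run. The signs of the CHF estimates of ADIPOQ, PLIN1, PLIN4, CIDEC, CIDEA, FABP4 and DGAT2 held in every alternative. LPL for CHF was -0.21 with the cardiomyocyte covariate and -0.21 without CAV614 and CAV1047, and -0.29 to 0.52 with each dog left out. LEP for CHF was 0.27 in males alone and -0.25 to 0.075 with each dog left out, and PPARG was 0.22 in males alone. LEP for sex was 0.063 with limma, 0.018 with the covariate and -0.14 to 0.25 with each dog left out, and CIDEA for sex was 0.27 with limma. The PLIN1 interaction was -0.010 with DESeq2 and -0.0047 with RLE scaling. Features called for CHF status were 9 at an FDR of 0.05, 64 with DESeq2, 13 without sex in the model, 0 in females alone (2014 at an unadjusted p below 0.05), 0 in males alone (671) and 8 to 28 with each dog left out, lowest without CAV1519 or CAV2102, against 23. DESeq2 called 3 interactions against 0. By rho, relations with ADIPOQ past the threshold were 5 in 10y-MMVD-CHF dogs alone. Those with cardiomyocyte markers were 3 in 10y-MMVD-CHF dogs alone and 5 without CAV614 and CAV1047. Those with macrophage markers were 1 in 10y-noCHF dogs alone, 0 in 10y-MMVD-CHF dogs alone, 0 without the 2 dogs farthest from the median and 0 without CAV614 and CAV1047 (4 by r). The rho of LPL with endothelium was 0.0072 with RLE scaling, 0.011 in 10y-noCHF dogs alone and 0.045 without CAV614 and CAV1047, and that of LEP with cardiomyocyte markers was -0.029 in 10y-MMVD-CHF dogs alone. The causes were not tested, and single-group fits hold fewer dogs. No paired analysis was possible because each library came from a different dog and the labels pair no dogs between the groups. Low counts limit LEP, CIDEC and CIDEA most, and the spread between dogs limits every fold change.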
